A study of Mus musculus with 2 samples.

Results

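A set of 10 genes for cytosolic and mitochondrial heat shock proteins was followed in single cells of a mouse model of small cell lung cancer, an aggressive cancer of neuroendocrine type. They were taken as the rows of the deposited count matrices that carry the symbols Hspa1a, Hspa1b, Dnajb1, Hsph1, Hspb1, Hsp90aa1, Hspa8, Hsp90ab1, Hspd1 and Hspe1, and all 10 were found among the 28692 genes. The first 6 were grouped as inducible and the other 4 as constitutive. Tumours came from mice of mixed strain that carry 1 copy of CGRPCreER (CGRPCreER/+), a tamoxifen-inducible Cre active in cells that express CGRP (Calca), such as neuroendocrine cells. They also carry floxed Rb (Rbf/f) and floxed P53 (P53f/f), with the Rosa26mTmG reporter, which turns recombined cells green. Both groups carried these alleles: 1 group received saline (vehicle) and 1 received 5 mg per kg of cisplatin, which crosslinks DNA, both every 4 days for 2 weeks. The library protocol also names etoposide for the treated tumours, so whether it was given is not settled here, and the sources used here give neither the age nor the number of the mice. Tumours were dissociated with collagenase and DNase, and live GFP-positive cells were sorted and captured in droplets, with 1 library per group.

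Heat shock proteins are chaperones: they hold, refold or hand on other proteins. HSP70 proteins bind unfolded stretches in cycles driven by ATP, J-domain proteins such as DNAJB1 start the cycle, and HSP110 proteins release the bound nucleotide. HSP90 acts later, on nearly folded clients such as kinases, and HSPD1 with its lid HSPE1 forms a folding chamber in the mitochondrial matrix. Heat, proteotoxic stress and tissue dissociation are known to raise the inducible genes through heat shock factor 1, which binds heat shock elements, inverted repeats of the unit GAA. The constitutive genes are made in unstressed cells as well.

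The vehicle library held 3726 barcodes with a median of 8168 unique molecular identifiers (UMIs, counted RNA molecules), and the cisplatin library held 4254 with a median of 5925. Values are given for 3645 vehicle and 4212 cisplatin cells, those left after filters and after removing barcodes with markers of other cell types, and these are called sorted tumour cells. Between 10 and 11 of 12 neuroendocrine markers reached 100 CPM (UMIs scaled to counts per 1000000) in every cluster of at least 50 cells. The libraries shared 23 barcodes; without them the log2 ratio of Hspa1a was 1.54 against 1.55 with them. Levels are UMIs summed over cells scaled to CPM by the total of the same cells, with exact 95% Poisson intervals, and they are not divided by transcript length, so levels are not compared between genes. With 1 library per group no difference could be tested or checked in a replicate, and every interval covers counting error only. The median mitochondrial share was 2.78% in vehicle and 3.36% in cisplatin cells. Summed neuroendocrine markers came to 6699 CPM for vehicle against 10303 for cisplatin, and the 6 delta-like endocrine markers to 47.9 against 1079. The 5 club or secretory markers summed to 180.3 and 474 CPM, with Muc5b at 0 in cisplatin and 1 of 5 at 100 CPM in each library. The 6 alveolar type 2 markers summed to 56.7 and 208 CPM, with 0 and 1 at that level and none at 0, and the 9 non-neuroendocrine tumour markers to 75.7 and 225 CPM, with Wwtr1 and Axl at 0 in vehicle. Red blood cell markers summed to 53.7 and 0.736 CPM and neutrophil markers to 33.7 and 2.98 CPM. The part of these differences in the results was not tested.

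Promoter sequence was matched for 7 of the genes in RefSeq (GRCm38.p6): Hspa1a, Hspa1b, Dnajb1, Hsph1, Hspb1, Hspd1 and Hspe1. The genes without an entry are Hspa8, Hsp90aa1 and Hsp90ab1. The 150 bases before the start are shown for 5 genes, chosen to set Hspa1a and Hspb1, which differed most of these 5 between the libraries, beside Hsph1, Dnajb1 and Hspe1. They run 5′ to 3′ on the gene's strand, and capitals mark a match to a 2-unit heat shock element, GAANNTTC or TTCNNGAA.
Hspa1a: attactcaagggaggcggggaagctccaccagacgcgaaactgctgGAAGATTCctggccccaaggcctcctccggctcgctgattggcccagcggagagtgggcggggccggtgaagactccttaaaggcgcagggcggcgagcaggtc
Hspb1: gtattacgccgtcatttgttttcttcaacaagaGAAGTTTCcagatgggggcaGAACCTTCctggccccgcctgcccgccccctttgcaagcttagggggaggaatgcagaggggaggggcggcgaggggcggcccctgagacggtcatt
Hsph1: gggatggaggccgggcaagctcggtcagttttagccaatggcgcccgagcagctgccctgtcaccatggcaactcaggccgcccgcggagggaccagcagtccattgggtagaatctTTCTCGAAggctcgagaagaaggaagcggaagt
Dnajb1: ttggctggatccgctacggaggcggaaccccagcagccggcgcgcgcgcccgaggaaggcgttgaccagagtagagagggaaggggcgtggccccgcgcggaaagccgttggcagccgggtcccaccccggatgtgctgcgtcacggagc
Hspe1: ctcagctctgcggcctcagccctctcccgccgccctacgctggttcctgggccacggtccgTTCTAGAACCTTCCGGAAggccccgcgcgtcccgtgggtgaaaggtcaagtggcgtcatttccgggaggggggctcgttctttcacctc

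These windows are chr17:34972157-34972306, chr5:135887769-135887918, chr5:149636337-149636486, chr8:83608025-83608174 and chr1:55087998-55088147, in the order printed, with Hspa1a and Hsph1 on the minus strand. A 2-unit element was found in the 250 bases before the start in 12.8% of 32817 promoters, and a 3-unit element, in which GAANNTTC is followed by NNGAA or TTCNNGAA by NNTTC, in 0.466%; the patterns were searched on both strands and matches may overlap. Hspa1a and Hspa1b each held 1, from 104 to 97 bases before the start, and their windows were identical at 247 of 250 positions (98.8%). Hsph1 held 1, from 33 to 26 bases before the start. That RefSeq start lies 40 bases inside the GENCODE gene coordinates given below, so this element falls within them. Hspb1 held 2, from 117 to 110 and from 97 to 90 bases before it. Hspe1 held 3 overlapping 2-unit matches, which form 2 overlapping 3-unit matches, from 89 to 72 bases before its start. Dnajb1 had no match of these letters in this window at either of its 2 listed starts, and 1 of the 2 starts of Hspd1 had a 2-unit and a 3-unit match. The cisplatin over vehicle ratio was 1.18 for Hspe1, with 3 overlapping matches, and 2.75 for Hspb1, with 2. It was 2.93, 5.07 and 1.17 for Hspa1a, Hspa1b and Hsph1, with 1 each. Dnajb1, with none, had 1.42, and Hspd1, whose starts differed, had 1.02. A relation between matches and ratios was not tested.

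**Figure D1:**
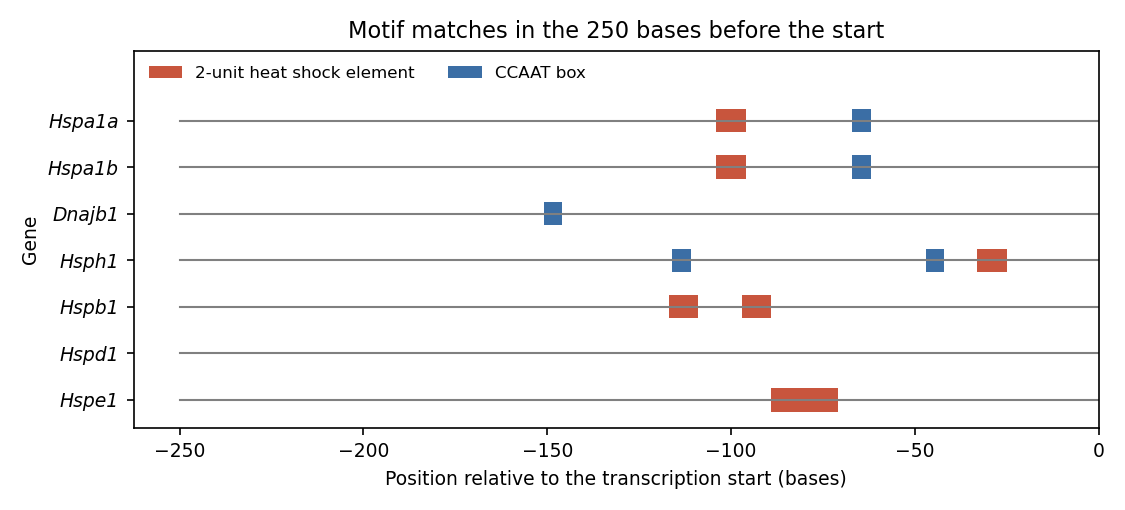
Positions of 2-unit heat shock elements and of CCAAT boxes (CCAAT or ATTGG, in 33.8% of promoters) in the 250 bases before the transcription start of the 7 matched genes. The horizontal axis is the distance from the start in bases. The element lies at the same place in Hspa1a and Hspa1b, and Hspe1 shows 1 long block made of 3 overlapping matches.

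The inducible HSP70 genes stood higher in the cisplatin library. Hspa1a (chromosome 17, 34969190 to 34972156, minus strand; all coordinates are GRCm38, GENCODE M21) encodes the main stress-induced cytosolic HSP70. The vehicle library gave 154 CPM (150.2 to 159, from 4943 UMIs) and the cisplatin library 453 CPM (445 to 461, from 12938 UMIs), a ratio of 2.93 (2.84 to 3.03). Hspa1b, the neighbouring copy (chromosome 17, 34956436 to 34959238, minus strand), was at 6.03 CPM (5.21 to 6.94) and 30.5 CPM (28.6 to 32.6), a ratio of 5.07 (4.33 to 5.95). The pair are near-identical genes, so the split of reads between them is uncertain. Hspa1a exons also overlap the gene Gm20481 on the other strand, which had 9 UMIs in vehicle and 23 in cisplatin, and the use of strand in counting is not stated in the sources at hand.

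The constitutive partner of these genes differed little. Hspa8 (chromosome 9, 40800984 to 40810087, plus strand) encodes HSC70, the HSP70 of unstressed cells that also uncoats clathrin vesicles. Vehicle cells had 2281 CPM (2264 to 2297) and cisplatin cells 2420.3 CPM (2402 to 2438), a ratio of 1.06 (1.05 to 1.07). Hspa1a and Hspa1b together came to 0.0704 UMIs per Hspa8 UMI in vehicle (0.0684 to 0.0724) and 0.200 in cisplatin (0.196 to 0.204).

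The partners of HSP70 moved less than Hspa1a. Dnajb1 (chromosome 8, 83608193 to 83612653, plus strand), the stress-induced J-domain protein, was at 428 CPM (420.5 to 435) and 606 CPM (597 to 615), a ratio of 1.42 (1.39 to 1.45). Hsph1 (chromosome 5, 149614287 to 149636376, minus strand), which encodes HSP110, was at 48.7 CPM (46.3 to 51.1) and 56.9 CPM (54.2 to 59.8), a ratio of 1.17 (1.09 to 1.26). Neither reached the 1.5-fold size used here to call a difference, and the ratio of Dnajb1 was 1.56 (1.52 to 1.60) without clusters 9 and 10, described below.

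Hspb1 (chromosome 5, 135887919 to 135889563, plus strand) encodes HSP27, a small heat shock protein that holds unfolded proteins without ATP. Its level was 128 CPM (124 to 132) with vehicle and 353 CPM (346 to 359.7) with cisplatin, a ratio of 2.75 (2.65 to 2.85). Without clusters 9 and 10 the cisplatin level was 226 CPM and the ratio 1.78 (1.71 to 1.86). Of these 3 called genes, Hspa1a then had a ratio of 2.53 (2.45 to 2.62) and Hspa1b of 4.25 (3.61 to 5.03).

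Both HSP90 genes were lower in cisplatin, the inducible one less so. Hsp90aa1 (chromosome 12, 110690605 to 110702728, minus strand) had 1473 CPM with vehicle (1460.2 to 1487) and 1269.9 with cisplatin (1257 to 1283), a ratio of 0.862 (0.850 to 0.874). Hsp90ab1 (chromosome 17, 45567775 to 45573271, minus strand), the constitutive form, was at 2092 CPM (2077 to 2108) and 1518 CPM (1504 to 1532), a ratio of 0.725 (0.717 to 0.734). The median log2 ratio of all genes was -0.16, so Hsp90aa1, at -0.21, lay close to the middle of all genes, and Hsp90ab1 was at -0.46.

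The mitochondrial pair was nearly level. Hspd1 (chromosome 1, 55077835 to 55088243, minus strand) was at 195 CPM (190.4 to 200.1) and 199 CPM (194 to 205), a ratio of 1.02 (0.985 to 1.06) whose interval includes 1. Hspe1 (chromosome 1, 55088132 to 55091307, plus strand) was at 263 CPM (257 to 269) and 309 CPM (303 to 316), a ratio of 1.18 (1.14 to 1.21). These genes lie head to head with overlapping first exons, so reads there cannot be told apart without strand.

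**Figure D2:**
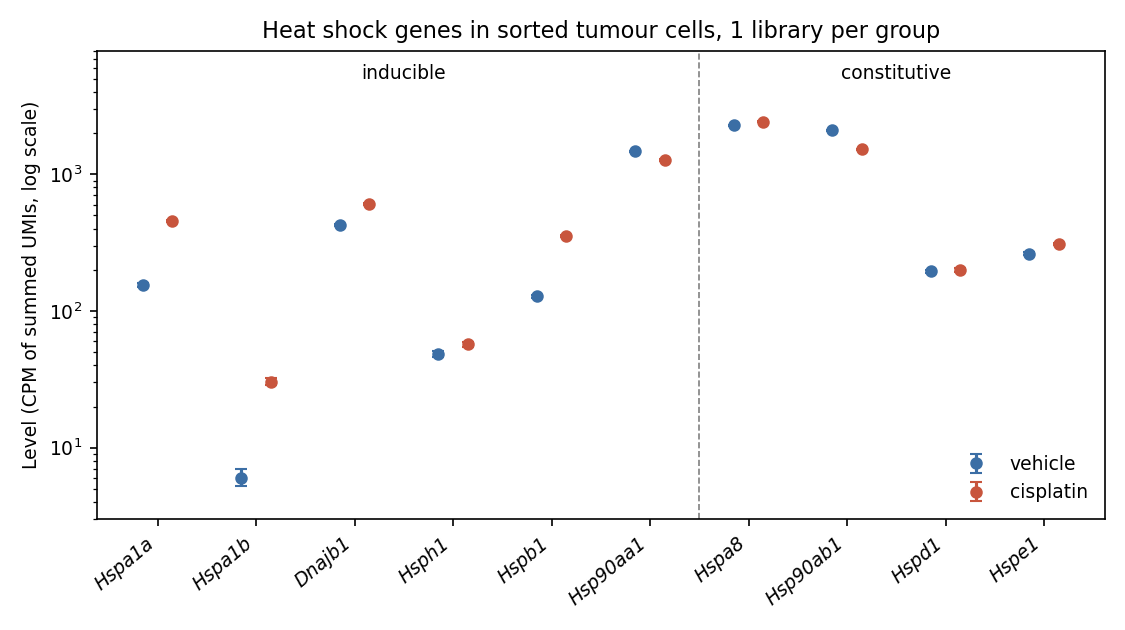
Level of each gene in sorted tumour cells of the vehicle and cisplatin libraries, in CPM of summed UMIs on a log axis; points are the library values and bars the exact 95% Poisson interval, often smaller than the point. Hspa1a, Hspa1b and Hspb1 stand apart between libraries (154 and 453, 6.03 and 30.5, and 128 and 353 CPM), while Hspa8 and Hspd1 nearly coincide.

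Of the 10 genes, 3 were higher in cisplatin by at least 1.5-fold and 0 were lower. Of the 13369 genes with at least 50 UMIs over both libraries, 8.15% were higher and 21.4% lower by that size, 29.5% in either direction. All 3 belong to the 6 inducible genes, whose median log2 ratio was 0.98, and the 4 constitutive genes had a median of 0.06. Scaling moved the counts over all genes: with CPM 1089 were higher and 2857 lower, with TMM factors 1569 and 1889, and with median-of-ratios factors 1674 and 1775, since the median log2 ratio moved from -0.16 to -0.02 and 0.00. Under both of those scalings Dnajb1 also passed 1.5-fold, making 4 of the 10.

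The sum of the inducible genes hid most of this, because Hsp90aa1 held 65.8% of it in vehicle and 45.9% in cisplatin. The inducible sum was 2239 CPM (2222 to 2255) and 2769.6 CPM (2750.3 to 2789), a ratio of 1.24. Without Hsp90aa1 it was 765 CPM (756 to 775) and 1499.6 CPM (1485 to 1514), a ratio of 1.96 (1.93 to 1.99). The constitutive sum was 4831 CPM (4807 to 4855) and 4446 CPM (4422 to 4471), a ratio of 0.920 (0.914 to 0.927), but its log2 ratio of -0.12 became 0.04 with TMM and 0.06 with median-of-ratios scaling. A ratio within a library does not depend on scaling: inducible UMIs per constitutive UMI were 0.463 in vehicle (0.459 to 0.467) and 0.623 in cisplatin (0.617 to 0.628), and 0.158 and 0.337 without Hsp90aa1. All 10 genes together made up 7069.6 CPM of vehicle RNA and 7216 CPM of cisplatin RNA.

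Cells were next split by cluster, made without the 10 genes and without the pathway lists. Vehicle cells fell mainly in cluster 1 (2162 cells), cluster 0 (656 cells, led by the mitotic genes Ube2c and Plk1), cluster 2 (584 cells, led by Shisa8 and Batf3) and cluster 8 (175 cells, led by stress genes such as Trib3 and Ddit3). Cisplatin cells fell in cluster 4 (1900 cells), cluster 7 (912 cells, with the mitotic genes Cdc20 and Nusap1), cluster 10 (602 cells), cluster 5 (383 cells, with Shisa8 and Batf3), cluster 9 (156 cells), cluster 8 (141 cells) and cluster 6 (59 cells, led by interferon-response genes). Clusters 9 and 10 held 6 of 6 delta-like endocrine markers at 100 CPM, among them Sst and Hhex, and no vehicle part of at least 50 tumour cells. Sftpc, a surfactant gene of alveolar type 2 cells, was among the leading genes of cluster 10. It was also the 1 of 6 alveolar type 2 markers at 100 CPM there and in cluster 9, where those markers summed to 848 and 476 CPM. Clusters of 1 library are not replicates, and a cluster mostly of 1 library may be that library rather than a state.

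The highest cluster stood 4.59-fold over the lowest for Hspa1a in vehicle and 4.13-fold in cisplatin. In vehicle it was at 51.1 CPM in mitotic cluster 0 (46.1 to 56.6), 59.9 in cluster 2 (53.9 to 66.3), 182 in cluster 8 (161 to 205) and 235 in cluster 1 (227 to 242). In cisplatin it ran from 200.2 CPM in cluster 5 (184 to 218) and 213 in mitotic cluster 7 (203 to 223) to 607 in cluster 4 (592 to 623) and 827 in delta-like cluster 10 (800.3 to 854). The intervals of clusters 0 and 2 overlapped, as did those of clusters 5, 7, 6, 9 and 8 between neighbours in that order. Low cisplatin clusters thus lay near the vehicle maximum. Although Hspa1a was kept out of the clustering, it led the genes that set cluster 1 apart from the other vehicle cells. Over both libraries it does not mark cluster 1, since cisplatin clusters 4 and 10 had more of it.

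The highest cluster stood 3.67-fold over the lowest for Hspb1 in vehicle and 7.34-fold in cisplatin. It went from 67.7 CPM in cluster 0 (61.9 to 73.9) to 155 in cluster 1 (149 to 161) and 249 in cluster 8 (224 to 275) in vehicle. The cluster 8 level rested on few cells, since 5 of 175 held 54.9% of its Hspb1 UMIs, and the share of cells with an Hspb1 UMI at 3000 UMIs per cell was 21.9% there and 21.8% in cluster 1. In cisplatin it went from 127 CPM in cluster 5 (114 to 141) to 310.0 in cluster 4 (299 to 321), 488 in cluster 9 (455 to 523) and 932 in cluster 10 (904 to 960.5), so that both delta-like clusters were the highest. The part of the Sftpc-bearing RNA in those levels was not tested. Dnajb1 did not share this. It was highest in cluster 4, at 925 CPM (907 to 944), and lower in the delta-like clusters, at 415 CPM in cluster 10 (397 to 435) and 286 in cluster 9 (261 to 313).

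Hsp90aa1 ran the other way. In vehicle it was lowest in cluster 1, at 1278 CPM (1261 to 1296), and highest in clusters 0 and 2, at 1657 (1627 to 1687) and 1772 (1739.6 to 1806). In cisplatin it was lowest in cluster 10, at 1085 CPM (1055 to 1116), and highest in cluster 5, at 1575 (1529 to 1623). The clusters with the most Hspa1a in each library thus had the least Hsp90aa1, although the intervals of clusters 10 and 6 (1109 CPM) overlapped.

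The constitutive genes spread less than Hspa1a, Hspa1b, Hspb1 and Dnajb1 in both libraries, though no less than Hsp90aa1, which spread 1.39-fold in vehicle and 1.45-fold in cisplatin. The highest cluster stood 1.51-fold over the lowest for Hspa8 in vehicle and 1.78-fold in cisplatin, with cluster 8 lowest in both at 1575 and 1485 CPM. Hsp90ab1 spread 1.46-fold and 1.45-fold, Hspd1 1.63-fold and 1.62-fold, and Hspe1 2.07-fold and 1.62-fold. Hspd1 and Hspe1 were both highest in cluster 8 in vehicle, at 258 and 415 CPM, though the Hspd1 intervals of clusters 8 and 2 overlapped. The integrated stress list summed to 8242 CPM there against 823 to 1731 in the other vehicle clusters. Cisplatin cells did not repeat this for both genes. Hspd1 was highest in cluster 8 (252 CPM, list at 5946 CPM), but Hspe1 was highest in cluster 10 (397 CPM, list at 1228 CPM). Both were lowest in cluster 6, at 155 and 245 CPM, with the list at 4815 CPM. Cisplatin intervals overlapped for Hspd1 between clusters 8 and 5 and between clusters 6 and 9. For Hspe1 they overlapped between clusters 6 and 7, so these ranks are not settled. The part of integrated stress was not tested.

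Depth and immediate early genes, which dissociation is known to raise, moved with part of this pattern. Cluster 1 had a median of 7541.5 UMIs per cell against 10617.5 and 10623.0 in clusters 0 and 2, and cluster 4 had the lowest, 4771.0. The 16 immediate early genes summed to 14021 CPM in cluster 1 against 8895 to 9682 in the other vehicle clusters, and to 17945 in cluster 4. Cluster 10, with the most Hspa1a, had 9769.7 CPM of immediate early genes, 7083.5 UMIs per cell and the most endoplasmic reticulum chaperone RNA, 6515 CPM. Within cluster 4, Hspa1a was at 711 CPM in cells below the cluster's median depth (683 to 739.9) and 553 CPM in the others (536 to 572), at median depths of 3778.0 and 6091.0 UMIs. In cluster 1 the like values were 257 and 224 CPM at 4922.0 and 9195.0 UMIs, so the depths were not matched. The part of depth and of immediate early genes in the differences was not tested.

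**Figure D3:**
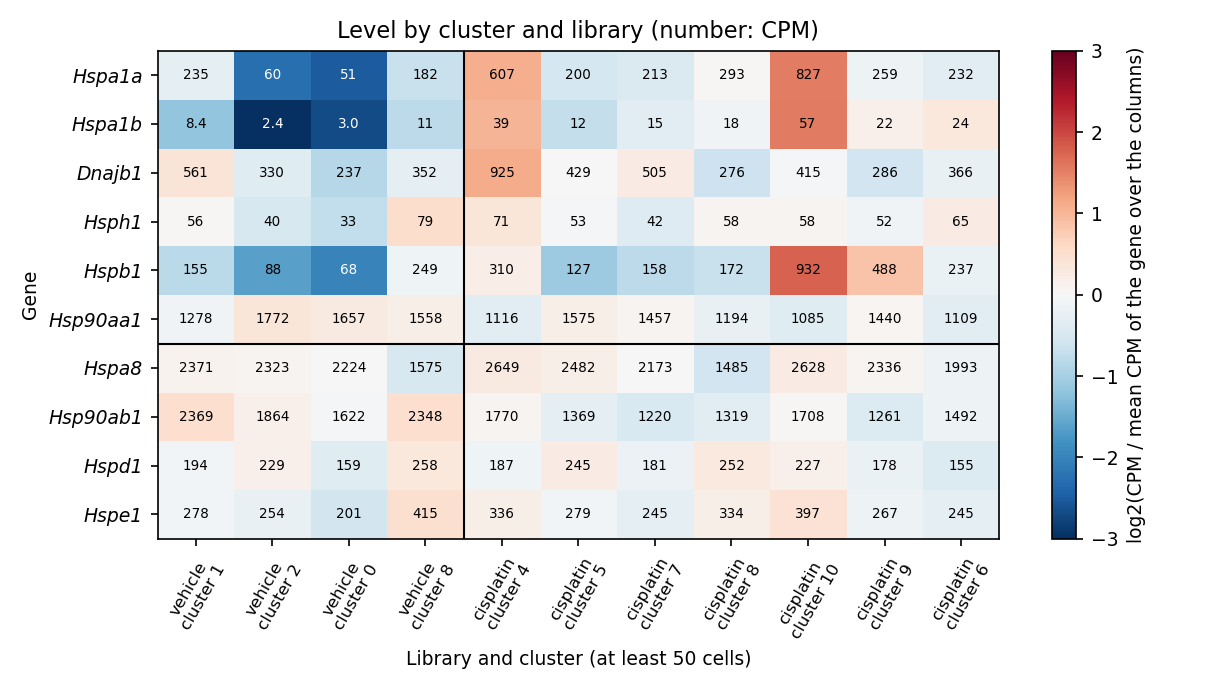
Level of each gene in each cluster of each library with at least 50 cells. The number is the CPM of summed UMIs and the colour is its log2 ratio to the gene's mean over the columns. Hspa1a, Hspa1b and Hspb1 vary most, with 827, 57.3 and 932 CPM in cisplatin cluster 10, while Hsp90aa1 and the lower block of constitutive genes are paler.

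The libraries were compared within 4 pairs of clusters with like leading genes, a choice made after seeing the data. In clusters 1 and 4, the largest of each library, Hspa1a had a cisplatin over vehicle ratio of 2.59 (2.48 to 2.69), Hspa1b of 4.64 (3.81 to 5.67), Hspb1 of 2.00 (1.90 to 2.11) and Dnajb1 of 1.65 (1.60 to 1.70). These were 4 of the 6 inducible genes past 1.5-fold, where 4.77% of genes were higher and 22.1% lower, and 0 of the 10 were lower. In mitotic clusters 0 and 7 the same genes passed, with Hspa1a at 4.17 (3.72 to 4.67), Hspa1b at 5.12 (3.23 to 8.48), Hspb1 at 2.33 (2.10 to 2.60) and Dnajb1 at 2.13 (2.02 to 2.26), where 6.34% of genes were higher. These clusters were not matched in cell cycle. A list of mitotic genes summed to 6422 CPM in cluster 0 and 4820.4 in cluster 7, and a list of S-phase genes to 1035 and 1755. The part of that mismatch in the ratios was not tested. In clusters 2 and 5 Hspa1a alone passed among the 5 inducible genes measured, at 3.34 (2.93 to 3.82), where 4.63% of genes were higher. Hspb1 was at 1.44 there, and Hspa1b, with 15 and 33 UMIs, was under the minimum of 50.

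The stress-led cluster 8, the one with at least 50 tumour cells in both libraries, differed from these pairs for some genes. Hspa1a came to 182 CPM for vehicle (161 to 205) and 293 for cisplatin (261 to 328), a ratio of 1.61 (1.36 to 1.91), where 16.5% of genes were higher. Hspb1 was at 249 and 172 CPM, a ratio of 0.691 (0.574 to 0.828), and Dnajb1 at 352 and 276 CPM, a ratio of 0.784 (0.676 to 0.908). Few cells set the Hspb1 value: 5 of the 175 vehicle cells held 208 of its 379 UMIs, and 1 cell held 107. The share of cells with an Hspb1 UMI at 3000 UMIs per cell ran the other way, 21.9% and 34.1%, so no order is read. Hsp90ab1 was lower by more than 1.5-fold, at 2348 and 1319 CPM, a ratio of 0.562 (0.527 to 0.598), where 17.5% of genes were lower.

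Across the pairs both HSP90 genes were below a ratio of 1, Hsp90aa1 near the middle of all genes in 3 of them. Its log2 ratios were -0.20, -0.19, -0.17 and -0.38 beside medians over all genes of -0.19, -0.14, -0.17 and 0.00. Hsp90aa1 ratios were 0.873, 0.879, 0.889 and 0.767, and Hsp90ab1 ratios 0.747, 0.752, 0.734 and 0.562, in the order given. Hspd1 ratios lay between 0.965 and 1.14 and Hspa8 ratios between 0.943 and 1.12.

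**Figure D4:**
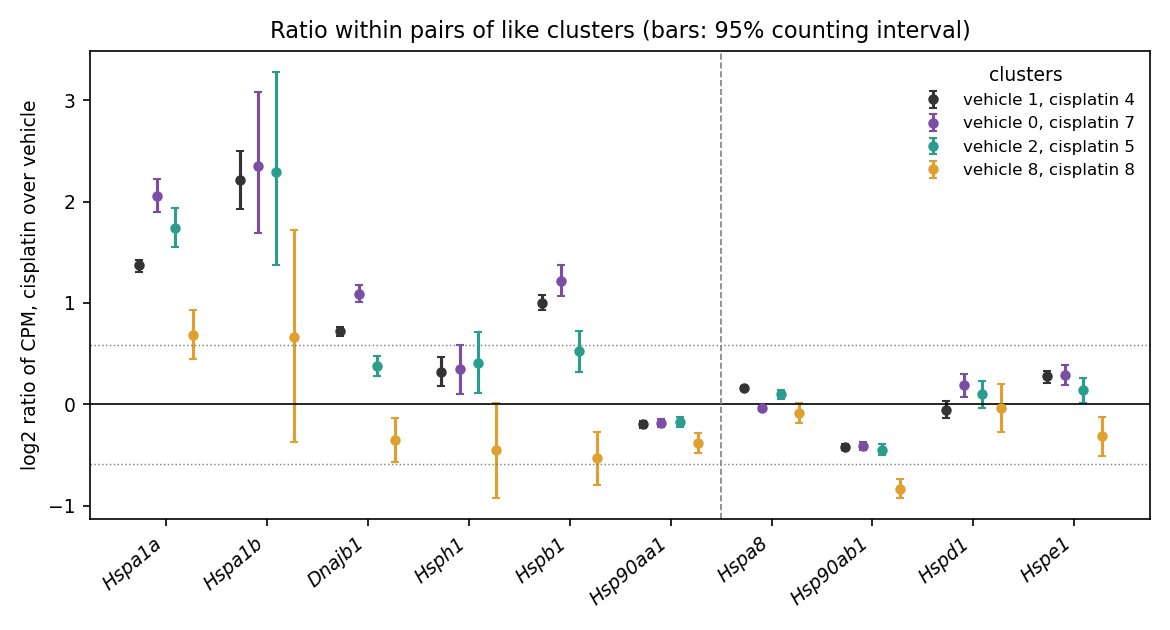
Ratio of cisplatin over vehicle CPM (log2) for each gene within 4 pairs of clusters; points are ratios, bars the 95% counting interval, and dotted lines mark 1.5-fold. Hspa1a lies above 0 in all 4 pairs (ratios of 1.61 to 4.17), Hsp90ab1 below 0 in all 4, and Hspb1 and Dnajb1 on both sides, below 0 in the stress-led cluster 8.

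The split by mitosis showed the same opposition in both libraries. Mitotic cells had at least 2 UMIs over 10 mitotic genes after every cell was thinned to 3000 UMIs, and cells with fewer than 2 UMIs of the mitotic list and fewer than 2 of a list of 10 S-phase genes are set beside them. Mitotic vehicle cells had 78.2 CPM of Hspa1a (69.5 to 87.6) against 244 in the others (223 to 266). Mitotic cisplatin cells had 270.2 CPM (255 to 285) against 631 (599 to 664). For Hsp90aa1 the order was the reverse, with 1629 CPM (1589 to 1671) against 1245 (1198 to 1295) with vehicle, and 1400.1 CPM (1367 to 1434) against 1093 (1051 to 1137) with cisplatin. Mitotic cells were 35.9% of thinned vehicle and 40.7% of thinned cisplatin cells. Cells with at least 2 S-phase UMIs and fewer than 2 mitotic ones were 44.6% and 39.5%. They had 213 CPM of Hspa1a with vehicle (199.7 to 226) and 651 with cisplatin (628 to 675), and 1353 and 1135 CPM of Hsp90aa1. Little Hspa1a beside much Hsp90aa1 was not limited to mitotic clusters. The S-phase list summed highest in vehicle cluster 2 and cisplatin cluster 5, at 2795 and 3485 CPM. These had 59.9 and 200.2 CPM of Hspa1a and 1772 and 1575 of Hsp90aa1. The class by S-phase UMIs differed from these clusters, with Hspa1a near that of cells low in both lists. Its cut of 2 UMIs is loose, since the S-phase list summed to 1025 CPM in cluster 1 and 1035 in cluster 0. That class is therefore not read as cells in S phase.

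At a fixed depth, Hspa1a and Hspb1 were seen in a minority of cells, as were Hspa1b, Hsph1 and Hspd1, unlike Dnajb1 and Hsp90aa1. At 3000 UMIs per cell, which left out 143 vehicle and 361 cisplatin cells as too shallow, 659 of 3502 vehicle cells had an Hspa1a UMI (18.8%; exact Clopper-Pearson 17.5 to 20.2%) and 1526 of 3851 cisplatin cells did (39.6%; 38.1 to 41.2%). Unthinned, the shares were 28.1% and 50.8%. For Hspb1 the thinned shares were 19.8% (18.5 to 21.1%) and 39.0% (37.4 to 40.5%), for Dnajb1 56.3% (54.6 to 58.0%) and 62.2% (60.6 to 63.7%), for Hsp90aa1 96.1% and 93.5%, and for Hspa8 99.2% and 99.1%. Thinned cells with no Hspa1b UMI were 98.1% in vehicle and 92.5% in cisplatin. For Hsph1 they were 86.0% and 84.9%, and for the constitutive Hspd1 57.5% and 55.1%. The 10% of cells with the most Hspa1a held 81.2% of its UMIs in vehicle and 59.0% in cisplatin. The like shares of the sparse gene Hsph1 were 75.2% and 69.9%, with a variance only 1.14 and 1.08 times its mean. A high share alone therefore does not set Hspa1a apart. The variance of Hspa1a per cell was 4.64 times its mean in vehicle and 5.92 times in cisplatin, against 1.09 and 1.02 for Hspd1, where counting noise alone gives 1.

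No cell type that should lack these genes was at hand to measure free RNA, since heat shock genes are made in many types. Of the 8 vehicle barcodes with T cell markers that reached 3000 UMIs, 6 had an Hspa1a UMI and 0 had an Hspb1 UMI (0 of 8; the interval reaches 36.9%). Unthinned, 3 of 9 such barcodes had an Hspb1 UMI, at a median depth of 3380.0 UMIs against 8206.0 in vehicle tumour cells. The 15 vehicle barcodes of cluster 9, left out for their T cell markers (6 of 7 at 100 CPM), had 615 CPM of Hspa1a (494 to 757), above every vehicle tumour cluster, and 55.3 CPM of Hspb1 (23.9 to 109). These barcodes also carried 9 of 12 neuroendocrine markers at 100 CPM, summing to 4803 CPM, and the delta-like markers Sst and Ceacam10, so their Hspa1a cannot be assigned to 1 cell type.

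**Figure D5:**
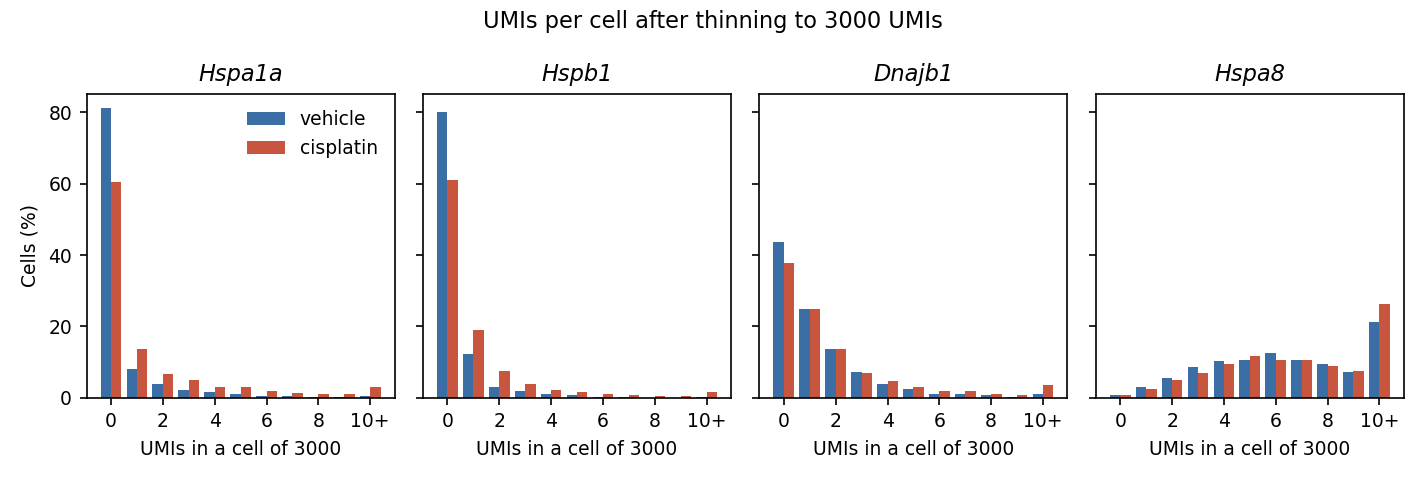
Share of cells (percent) by the number of UMIs of Hspa1a, Hspb1, Dnajb1 and Hspa8 in each cell thinned to 3000 UMIs, for the vehicle and cisplatin libraries; the last bar holds cells with 10 or more. Cells with at least 1 UMI of Hspa1a are 18.8% in vehicle and 39.6% in cisplatin, while Hspa8 has nearly the same distribution in both.

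How the genes varied together is described over the 11 cluster parts, which share libraries and depth and are not independent. The Pearson correlation of log2 levels was 0.96 for Hspa1a and Hspa1b, 0.85 for Hspa1a and Hspb1, 0.57 for Hspa1a and Dnajb1, and -0.84 for Hspa1a and Hsp90aa1. Hspd1 and Hspe1 reached 0.70, and Hspa1a and Hspa8 0.18. Within single cells the values were weak: the highest computed, Hspa1a with Hspb1 over 559 cells of cluster 10, was 0.40. For Hspa1a and Hsp90aa1 it was 0.00 over 3502 vehicle cells and -0.00 over 3851 cisplatin cells. Within single clusters that pair lay between 0.01 and 0.08. The negative value of this pair was thus seen between cluster levels. Whether it holds from cell to cell cannot be read, since 81.2% of thinned vehicle and 60.4% of thinned cisplatin cells had no Hspa1a UMI. Even Hspa1a and Hspa1b reached only 0.15 and 0.24 over the cells of each library. Among 6546 genes, those most like Hspa1a over the 11 parts were Tomm6 and Ttc33 (0.93 each), then Hspa5, Ndufs3 and Ift20 (0.91 each). For Dnajb1 they were Sod2 and Prox1os (0.94 each), S100a1 (0.91), Itm2c (0.89) and Dnaja4 (0.88). For Hsp90aa1 they were Brca2 (0.95), Eftud2 (0.94), then Fmr1, Kpnb1 and Phip (0.93 each), and for Hspd1 the leading gene was Srm (0.95).

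Other heat shock factor targets and co-chaperones differed in part. Of 32 measured, 6 were higher by 1.5-fold (Hsf2, Bag3, Cryab, Dnaja1, St13 and Ubb) and 1 was lower (Hspa4), where 8.15% of all genes were higher and 21.4% lower. The list's median log2 ratio was 0.17, against -0.16 for all genes. Cryab, another small heat shock protein, had 7.78 CPM with vehicle and 22.8 with cisplatin, and Ubb, a polyubiquitin gene, at 2097 and 4494 CPM. Bag3, which links HSP70 to autophagy, was at 10.7 and 21.0 CPM. Without the delta-like clusters 4 were higher, Hsf2, St13, Ahsa2 and Ubb, where 5.72% of all genes were, and 0 were lower.

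In the other lists, too, counts are to be read against the 8.15% of all genes that were higher and the 21.4% that were lower. Of 7 subunits of the cytosolic chaperonin TRiC found among 8, 0 were higher and 1 was lower, Cct2, at 229 and 145 CPM. Of 10 other mitochondrial chaperones and proteases, 0 passed in either direction, and Grpel1, the nucleotide exchange factor of mitochondrial HSP70, was at 105 and 128 CPM. Of 14 endoplasmic reticulum chaperones, 4 were higher, all of them folding enzymes or co-factors (Pdia3, Pdia4, Pdia6 and Sdf2l1), and the list's median log2 ratio was 0.31, with Pdia4 at 61.7 and 123 CPM, but 1 (Pdia4) was higher without the delta-like clusters. Of 16 immediate early genes, 3 were higher (Atf3, Dusp1 and Nr4a1) and 4 lower (Fosb, Socs3, Klf4 and Klf6); Dusp1 was at 447 and 787 CPM and Fosb at 227 and 70.8 CPM. Of 10 integrated stress genes, 0 were higher and 1 was lower, Sesn2, at 9.09 and 5.75 CPM.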

How the data were processed

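The authors deposited integer UMI counts, unscaled, per the file headers. The submitters' processing notes name Cell Ranger 2.0.2 and mm10 without their roles. A filter at 500 genes and 10% mitochondrial UMIs took out 54 vehicle and 36 cisplatin barcodes. Scrublet marked 1 and 6 barcodes (0.0272% and 0.142%), under the 0.5% taken as a working call, so no doublet was removed. Clusters used counts scaled to 10000, 2000 variable genes, 30 components, 15 neighbours and Leiden resolution 0.5 (scanpy 1.11.5, igraph 0.11.9). Clustering did not use the 10 genes, the pathway lists, sex-linked marker genes, or genes of mitochondria and ribosomes. Barcodes with 3 markers of another cell type, each seen in under 2% of barcodes, were left out, as were parts of a cluster with 3 such markers at 100 CPM and 20 UMIs; 99.3% of kept vehicle and 99.9% of kept cisplatin barcodes stayed.

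Log2 ratios add 1 CPM. Genes needed 50 UMIs over both libraries, and a call was 1.5-fold. Alternative scaling factors came from edgeR 4.0.16 (TMM) and DESeq2 1.42.0 (median-of-ratios). Python 3.11.15, numpy 2.4.6, scipy 1.17.1 and R 4.3.3 were used. The code for calls and intervals was run on simulated Poisson counts. Those lack the spread between cells seen here, so the run cannot show that the intervals hold for these data. The genes, their grouping and the lists were chosen with earlier results of these data known. All 10 genes were named, with up to 4 measured genes of each list by absolute log2 ratio and the 5 most correlated genes of a member with a mean of at least 20 CPM; other list genes past 1.5-fold were named after their values were seen. A part of the genotype, shared by both groups, is not reported here.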

Additional observations from a re-analysis of the deposited data

Results flagged for a closer look

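For 4 genes the difference between libraries had opposite directions in different pairs of clusters, with both counting intervals away from a ratio of 1. With 1 library per group the difference between pairs was not tested. The log2 ratio of Hspb1 ranged from -0.53 in cluster 8 to 1.21 in mitotic clusters 0 and 7. In cluster 8, 5 of 175 vehicle cells held 208 of 379 Hspb1 UMIs and 1 cell held 107, and the share of cells with an Hspb1 UMI at 3000 UMIs per cell ran the other way, 21.9% in vehicle and 34.1% in cisplatin. No direction is therefore read for Hspb1 there. The log2 ratio of Dnajb1 ranged from -0.35 to 1.09 over the same pairs, and that of Hspe1 from -0.32 to 0.29. Hspa8 ranged from -0.08 in cluster 8, where its interval reached past 1, to 0.16 in clusters 1 and 4. Its ratio in clusters 0 and 7 was 0.977 (0.956 to 0.998), a log2 ratio of -0.03. The median log2 ratio of all genes was -0.14 in that pair and -0.19 in clusters 1 and 4. Hspa8 thus lay above the median in both, and its directions are opposite only against a ratio of 1.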

How the results depend on the processing

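No paired analysis was possible because each group is 1 library with no replicate numbers, and for the same reason no replicate could be left out. Hspa1a and Hspa1b passed 1.5-fold in 19 of 19 alternatives, with log2 ratios of 0.69 to 2.04 and 0.63 to 2.33, but Hspa1b had under 50 UMIs in 2 of these, clusters 2 and 5 and cluster 8. Hspb1 passed in 17 of 19, and reversed to -0.53 in cluster 8. The inducible and constitutive log2 ratios (0.31 and -0.12) became 0.46 and 0.04 with TMM, 0.49 and 0.06 with median-of-ratios scaling, 0.25 and -0.14 without the delta-like clusters, 0.33 and -0.10 thinned to 3000 UMIs, 0.25 and -0.15 in mitotic cells, and 0.34 and -0.09 in cells without mitotic UMIs. In this section mitotic UMIs were counted without thinning, unlike in the split by mitosis above, so these sets of cells depend on depth. Mitotic cells, with at least 2 such UMIs, were 2080 in vehicle and 2235 in cisplatin. Cells without such UMIs were 783 and 1068. Alternatives added after seeing the data gave 0.97 without Hsp90aa1, 0.33 without cluster 8, 0.42 and -0.08 in clusters 1 and 4, 0.22 and -0.14 in clusters 0 and 7, 0.06 and -0.09 in clusters 2 and 5, and -0.27 and -0.44 in cluster 8, where 1 gene was lower. The inducible to constitutive ratio (0.463 in vehicle, 0.623 in cisplatin) was 0.458 in vehicle with at most 5% mitochondrial UMIs, 0.609 in cisplatin without the delta-like clusters, 0.468 in vehicle as a mean over cells, 0.458 and 0.617 thinned, 0.468 in mitotic vehicle cells, 0.474 and 0.638 without mitotic UMIs, and 0.158 and 0.337 without Hsp90aa1. By pair it was 0.440 in cluster 1, 0.487 in cluster 0, 0.491 and 0.548 in clusters 2 and 5, and 0.529 and 0.594 in cluster 8. Over the 89 measured genes of the 6 other pathway lists, 13 genes higher and 7 lower became 2 and 2 at 2-fold, 19 and 3 with TMM and 20 and 3 with median-of-ratios scaling. Over all 13369 measured genes, 1089 higher and 2857 lower became 1569 and 1889 with TMM and 1674 and 1775 with median-of-ratios scaling. All genes were not counted at 2-fold, so the 2 and 2 have no such share beside them. The share of cells with Hspa1a was 15.3% and 33.6% thinned to 2000 UMIs, and 28.1% and 50.8% unthinned. Cluster contrasts of Hspa1a, Hspb1 and Hsp90aa1 held their direction at resolutions 0.3 and 0.8 and with 30 neighbours and 20 components. The cause of each move was not tested.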
